A study of Homo sapiens with 10 samples.

Results

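The transcriptional response of MCF10A cells to 4 h of Nutlin-3a was measured by RNA-seq of poly(A) RNA in 6 of the 10 libraries of the series. All 3 libraries of cells given 10 µM Nutlin-3a were set against all 3 libraries of cells given the vehicle, DMSO, for the same time, with libraries of the same replicate number taken as a pair. MCF10A is a line of breast epithelial cells that grow without limit in culture but are not tumorigenic, and both groups were the parental cells, without the HRas oncogene that the study introduced into other cultures. All cultures were grown with EGF, insulin, hydrocortisone, cholera toxin and horse serum, so the response is that of growth factor-fed cultures of 1 line. Of 55736 genes in the count table, 13529 passed the filter on low counts and were tested. The comparison asks which genes respond early to activation of p53.

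p53 is a transcription factor that is kept scarce by MDM2, the ubiquitin ligase that binds it and marks it for degradation. Nutlin-3a occupies the pocket of MDM2 that holds p53, so that p53 accumulates without DNA damage and activates genes of growth arrest, cell death, repair and metabolism. MDM2 is itself a p53 target, which closes a negative feedback loop. Repression of cell cycle genes by p53 is known to run largely through p21, the product of CDKN1A, which inhibits the cyclin-dependent kinases and so keeps E2F target genes and genes of mitosis shut.

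The libraries held between 15453226 and 17378734 counted reads, and no pair of libraries was identical. Markers of basal mammary epithelium were abundant, with a summed level of 10666 to 11848 CPM (counts-per-million, a gene’s reads scaled to library size) in the DMSO libraries and 10900 to 13770 CPM in the Nutlin-3a libraries. Of 4 luminal hormone-responsive markers, ESR1 had at most 9 reads in a library and PGR had 0, while FOXA1 measured 8.65 to 13.9 CPM and GATA3 12.5 to 23.7 CPM. Of 6 leukocyte markers CD14 alone was tested, at 2.12 to 8.09 CPM, while PTPRC and LYZ had 0 reads, and endothelial markers together reached at most 0.427 CPM. Of 7 fibroblast markers only COL1A1 and DCN were tested, and DCN ranged from 13.4 to 132 CPM. Libraries of the same replicate number deviated together from their group means, with correlations across genes of 0.603 to 0.639. Other pairs had -0.474 to -0.191. The deviations of the 3 libraries of a group sum to 0 for each gene. Positive values for the same number therefore make the other pairs negative on average, and those values are not separate evidence of pairing. At an adjusted p under 0.05 in edgeR, the replicate number itself was associated with the level of 24.5% of tested genes. LIF shows the size of this spread. This cytokine transcript stood at 24.6, 106 and 34 CPM in DMSO replicates 1 to 3 and at 48.2, 117 and 64.9 CPM in the Nutlin-3a replicates, so that replicate 2 was the highest under both treatments. The study's methods speak of biological replicas without saying what set them apart, and the p-values measure only the spread between these samples.

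After Nutlin-3a, 95 genes were up-regulated, or 0.702% of those tested, and 70 were down-regulated, or 0.517%. Together the 165 called genes were 1.22% of those tested. A gene was called when edgeR's quasi-likelihood test with the replicate number as a block gave an adjusted p under 0.05 and its log2 fold change (log2FC) exceeded 0.5 in size. The response was asymmetric in size. Of the up-regulated genes 39 changed by more than 2-fold, against 4 of the down-regulated genes, and the median log2FC was 0.90 among the former and -0.62 among the latter. The median over all tested genes was 0.0051, and the median absolute log2FC was 0.10. All 95 and all 70 called genes moved the same way in the 3 pairs, as did 32.8% of all tested genes. The 3 Nutlin-3a libraries lay wholly above the 3 DMSO libraries for 84 of the 95 and wholly below for 56 of the 70, while 8.07% of all tested genes had groups that did not overlap.

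**Figure D1:**
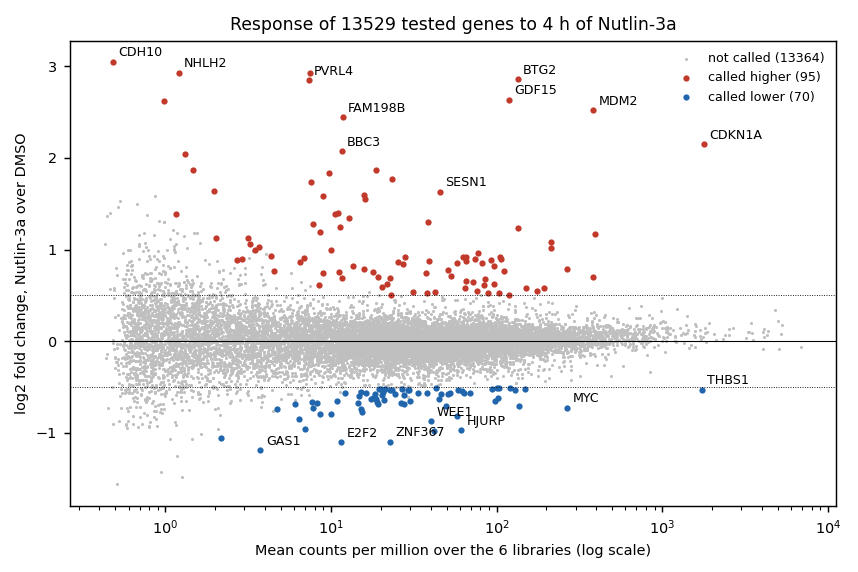
Log2 fold change of Nutlin-3a over DMSO (vertical axis) against the mean CPM of the 6 libraries (horizontal axis, log scale) for the 13529 tested genes, 1 point a gene, with dotted lines at the fold threshold of 0.5 on either side of 0. The 95 genes called higher reach further from 0 than the 70 called lower, and CDKN1A, MDM2, BTG2 and GDF15 stand out at high expression.

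Without the replicate block the counts fell to 21 higher genes, 0.155% of those tested, and 2 lower genes, 0.0148%. The 23 genes called under every setting were BBC3, BTG2, CDKN1A, CPM, DAPK1, EDA2R, FAM198B, FAM212B, GDF15, MDM2, NHLH2, PGF, PPM1D, PTCHD4, PVRL4, ENSG00000260912, RRM2B, SESN1, SGK223, TNFSF9 and TP53INP1 among the higher genes and HJURP and ZNF367 among the lower. Every other call below rests on the pairing. Scaling by library totals alone changed the split from 95 higher and 70 lower to 87 higher and 100 lower.

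Among the genes called higher, 24 of 95 (25.3%) held a p53 consensus element within 2500 bases of the 5′ end that the deposited table gives, against 519 of all 13529 tested genes (3.84%) and 0 of the 70 genes called lower. The element is a pair of adjacent 10-base copies of the p53 site with no spacer, and up to 2 mismatches in 20 bases were allowed on either strand, as long as the outer C and G of both core tetramers were kept. Members of the p53 lists that were tested but not called held it about as often, in 23 of 90 genes (25.6%). Allowing 1 mismatch, 6 of the 95 genes had an element, or 6.32%, against 0.532% of all tested genes. In the 300 bases around the start, from 250 before to 50 after, an element with up to 3 mismatches lay at 4 of the 95 genes (4.21%), at 0 of the 70 and at 1.12% of all. The window of 2500 bases and its limit of 2 mismatches were chosen after the calls were seen. A match of letters is a description of the sequence and not of bound p53.

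Elements beside the genes with the strongest or best known responses are printed from the hg19 genome, each 5′ to 3′ on the strand of its gene, with the 2 core tetramers in capitals. The BTG2 element was at chr1:203272770-203272789, 1849 bases upstream of the start, and the GDF15 element at chr19:18484757-18484776, 784 bases upstream. In MDM2 the element was intronic, at chr12:69202703-69202722, 747 bases downstream of the start. That of CDKN1A was at chr6:36644226-36644245, 2209 bases upstream of the deposited start and in an exon of a longer annotated transcript. EDA2R carried its closest match in an intron at chrX:65858555-65858574. Intronic elements of GADD45A and ZMAT3 were at chr1:68152458-68152477 and chr3:178787976-178787995, and the PLK2 element lay outside the gene at chr5:57758101-57758120. The ZMAT3 and PLK2 elements had 0 mismatches, those of GDF15, EDA2R and GADD45A had 1, and the others had 2.
BTG2: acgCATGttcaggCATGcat
GDF15: agaCCTGcccggaCATGtcc
MDM2: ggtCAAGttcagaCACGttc
CDKN1A: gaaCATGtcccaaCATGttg
EDA2R: gaaCATGcctggaCGTGtcc
GADD45A: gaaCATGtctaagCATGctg
ZMAT3: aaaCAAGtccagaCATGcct
PLK2: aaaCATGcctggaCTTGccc

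**Figure D2:**
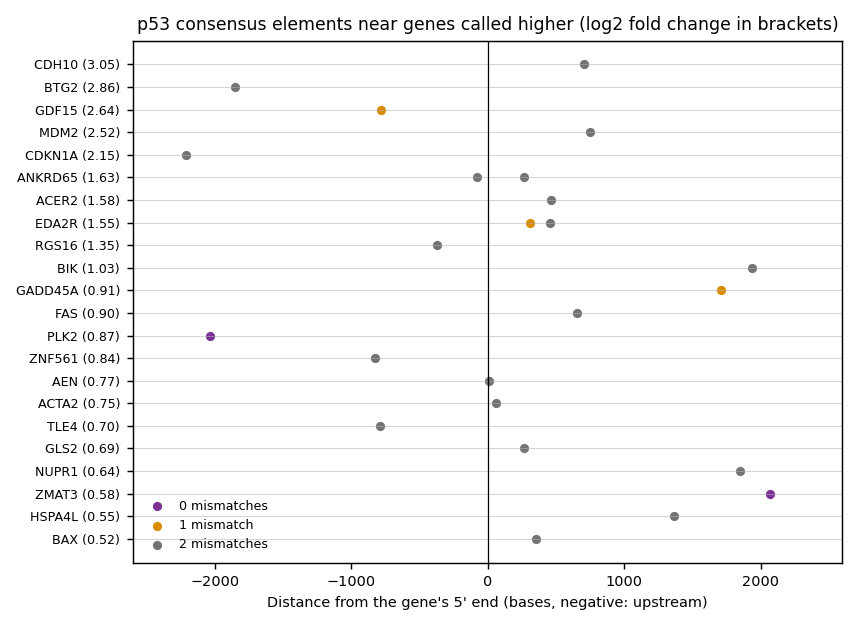
Distance in bases from the deposited 5′ end of the gene to each p53 consensus element (horizontal axis, negative upstream) for 22 of the 24 genes called higher that held one, ordered by log2 fold change (in brackets), with points coloured by the number of mismatches. The elements of RRM2B and TNFRSF10B are not plotted, because genes of chromosome 8 were left out when positions were listed. That of RRM2B had at most 1 mismatch. The 24 elements shown lie on both sides of the start, and the 2 of them with 0 mismatches lie 2033 bases upstream at PLK2 and 2072 bases downstream at ZMAT3.

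Of 8 regulators that feed back on p53, 3 rose and none fell. MDM2 (chr12:69201956-69239214) went from 122, 102 and 115 CPM to 814, 509 and 646 CPM, a log2FC of 2.52 with a standard error (SE) of 0.09 and an edgeR adjusted p of 1.84e-08. All 3 treated libraries were far above all controls, and replicate 1 gave the highest value in both groups. PPM1D, the phosphatase WIP1 that switches p53 signalling off, measured 18.7, 19.3 and 20.1 CPM and then 38.9, 33 and 37.9 CPM. TP53INP1, a cofactor that promotes p53 activity and autophagy, went from 12.2, 9.82 and 9.63 CPM to 39.4, 31.3 and 37 CPM. Their log2FC were 0.92 (SE 0.10) and 1.77 (SE 0.10). MDM4, the MDM2 partner that Nutlin-3a binds weakly, had a log2FC of 0.19 with an edgeR adjusted p of 0.648. CCNG1, which recruits a phosphatase to MDM2, passed the p threshold but not the fold threshold, at 0.47. TP63, a relative of p53 that maintains basal epithelium, had a log2FC of -0.47 (edgeR adjusted p 0.0731), and TP73 was not tested for lack of reads.

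The growth arrest genes were the p53 list with the largest share of calls, with 11 of 15 tested members higher, none lower and a median log2FC of 0.63. CDKN1A (chr6:36646435-36655116) was already abundant in DMSO, at 624, 673 and 666 CPM, and reached 2712, 2688 and 3349 CPM. Its log2FC was 2.15 (SE 0.08, edgeR adjusted p 2.98e-08), or 4.44-fold. BTG2 (chr1:203274619-203278697), an antiproliferative partner of the mRNA deadenylation complex, rose 7.25-fold, from 27.8, 33.7 and 36.2 CPM to 224, 222 and 260 CPM. Neither gene had groups that approached each other. PHLDA3, which competes with AKT for membrane lipids, went from 200, 242 and 280 CPM to 441, 532 and 651 CPM (log2FC 1.16). GADD45A, a stress protein that restrains CDK1, measured 76.2, 79.3 and 61.2 CPM before and 118, 153 and 137 CPM after. The polo-like kinases PLK2 and PLK3, which act in stress responses, had log2FC of 0.87 and 0.85, and FBXW7, which targets cyclin E and MYC for degradation, 0.77. Smaller rises were those of TRIM22 (0.63), the RNA-binding protein gene ZMAT3 (0.58), the antiproliferative TOB1 (0.54) and SERTAD1 (0.51). The groups of TRIM22 and SERTAD1 overlapped. The 4 members not called were BTG1, SFN, CCNG2 and IER5. RPRM had 0 reads.

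Among cell death genes 10 of 23 were up-regulated and none down-regulated, and all 23 had a log2FC above 0, against 6943 of 13529 tested genes. The median log2FC of the list was 0.42. BBC3, which encodes the BH3-only protein PUMA, rose 4.2-fold from 5.59, 5.15 and 2.8 CPM to 20.9, 19 and 16.4 CPM (edgeR adjusted p 1.07e-05). EDA2R, a receptor of the TNF receptor superfamily, went from 7.63, 9.76 and 7.06 CPM to 30, 20.5 and 21.5 CPM. In both, the lowest treated library was above the highest control. FAS, the death receptor CD95, measured 65.1, 70.1 and 88.3 CPM and then 130, 130 and 155 CPM. The TRAIL receptor TNFRSF10B and the decoy receptor TNFRSF10D, which lacks a working death domain, had log2FC of 0.70 and 0.79. TRIAP1, which limits apoptosis, rose with a log2FC of 0.89, and so both promoters and inhibitors of death were among the called members. AEN, a nuclease of apoptosis, rose with 0.77, the adhesion protein gene NINJ1 with 0.75 and PIDD, which nucleates a caspase-2 platform, with 0.69. BAX, the pore-forming effector, was near the fold threshold, at 73.4, 77.7 and 68 CPM in DMSO and 98.6, 104 and 111 CPM in Nutlin-3a (log2FC 0.52). It lost its call in some of the alternatives with all libraries. PMAIP1, which encodes NOXA, had a log2FC of 0.11 and TP53I3, a quinone oxidoreductase gene, 0.09, and neither was called.

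**Figure D3:**
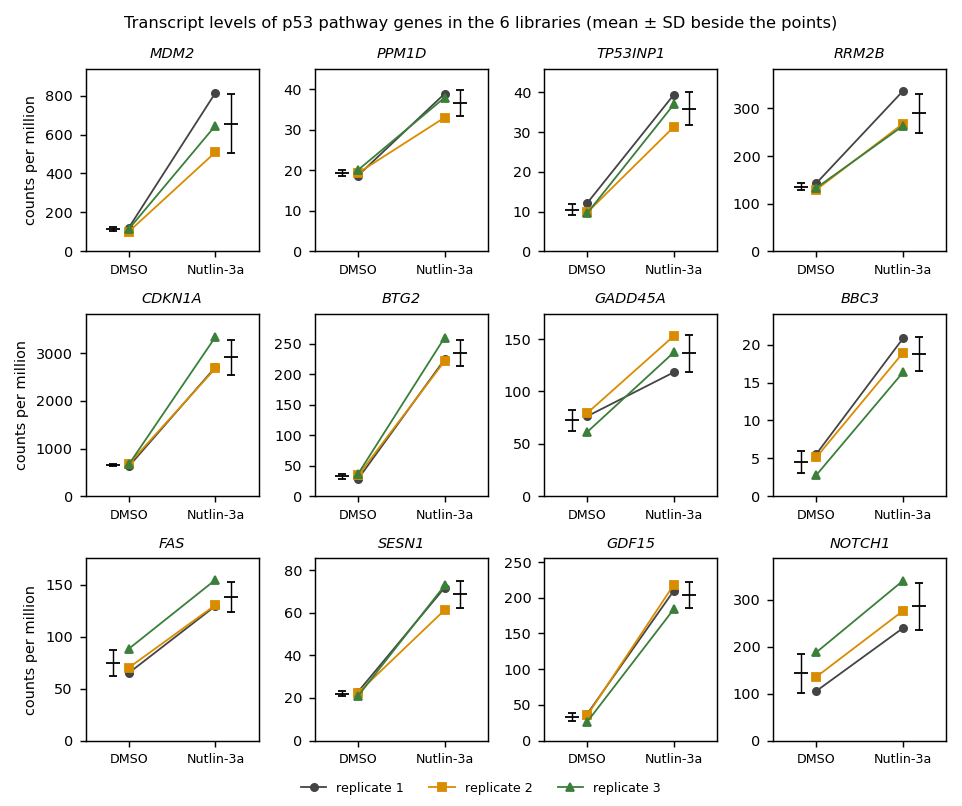
CPM (vertical axis, linear from 0) of 12 p53 pathway genes in the 6 libraries, with a line joining the DMSO and Nutlin-3a libraries of each replicate and the group mean ± SD beside the points. In every panel all 3 lines rise and the groups do not overlap.

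For DNA repair, 4 of 12 genes rose, none fell and the median log2FC was 0.34. RRM2B, the p53-inducible subunit of ribonucleotide reductase that supplies deoxynucleotides, went from 143, 130 and 133 CPM to 337, 268 and 263 CPM. Its log2FC of 1.09 (SE 0.08) was the largest of the list. POLH, the translesion polymerase that copies past ultraviolet damage, rose from 38.2, 52.7 and 66.4 CPM to 82.6, 95.4 and 125 CPM. XPC, which recognises distorted DNA in nucleotide excision repair, had a log2FC of 0.92, and FBXO22, a ubiquitin ligase subunit, 0.68. DDB2, the partner of XPC in that pathway, had a log2FC of 0.44 with an edgeR adjusted p of 0.024 and so stayed under the fold threshold.

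Metabolism and autophagy genes gave 6 higher of 21 tested and none lower, with a median log2FC of 0.33. SESN1, a sestrin that restrains mTORC1, went from 22.9, 22.5 and 20.9 CPM to 71.8, 61.3 and 72.8 CPM, a 3.1-fold rise. SESN2 rose less, from 68.3, 81.5 and 47.3 CPM to 114, 136 and 107 CPM. ACER2, an alkaline ceramidase of the Golgi, measured 2.82, 5.58 and 5.13 CPM and then 12.8, 13.3 and 13.8 CPM, so the treated libraries were close together and all above the controls. FDXR, ferredoxin reductase of mitochondria, had a log2FC of 0.88, C12orf5 (TIGAR, which lowers glycolytic flux) 0.86 and the glutaminase gene GLS2 0.69. DRAM1, an autophagy gene, was not called, with a log2FC of 0.36.

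Genes of signalling and secretion gave 6 higher and 1 lower of 22 tested. The lower gene was the only 1 in all 7 p53 lists, or 0.704% of their tested members, near the 0.517% of all tested genes. GDF15, a secreted stress cytokine of the TGF-beta superfamily, rose 6.22-fold from 37.4, 35.4 and 26.4 CPM to 210, 218 and 184 CPM (edgeR adjusted p 1.23e-08). NOTCH1 went from 106, 136 and 188 CPM to 240, 276 and 340 CPM, and here the replicates kept their order under both treatments. KITLG, the ligand of the KIT receptor, had a log2FC of 0.82 and CSF1, the macrophage growth factor, 0.60. LIF (0.66) and CSF1 had overlapping groups. THBS1, the matrix protein thrombospondin 1 that is listed as a p53-induced gene, was lower, at 1608, 2978 and 1624 CPM in DMSO and 1184, 1862 and 1179 CPM in Nutlin-3a. All 3 pairs of THBS1 moved down while the groups overlapped, with a log2FC of -0.53 (SE 0.07, edgeR adjusted p 0.00288).

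The last list held other reported targets, of which 11 of 41 were higher and none lower. FAM198B (GASK1B), a Golgi protein gene, rose 5.45-fold, from 3.04, 3.44 and 4.43 CPM to 19.4, 15.8 and 24.5 CPM. PTCHD4, a patched-related gene, and FAM212B (INKA2), an inhibitor of the kinase PAK4, had log2FC of 1.74 and 1.59. WDR63 rose from under 1 CPM in every DMSO library to 2.65, 1.36 and 2.9 CPM. The zinc finger genes ZNF79 and ZNF561 had log2FC of 1.28 and 0.84, the stress factor ATF3 0.99, the actin regulator CYFIP2 0.71, BLOC1S2 0.62, TMEM68 0.54 and HES2 0.53. Groups overlapped for ATF3 and HES2. Over all 7 lists of feedback regulators and targets, 142 of 150 genes were tested, and 126 had a log2FC above 0. Of the tested members 51 were called higher and 1 lower, or 35.9% and 0.704%, against 0.702% and 0.517% of all tested genes. The median log2FC of the 7 lists was 0.36 and stood at 0.33, 0.325 and 0.431 in the 3 pairs. Without the replicate block 13 of the 51 calls were made. The lists were assembled from general knowledge of p53 with earlier results of these data known, so their direction is not independent evidence.

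Of the 95 genes called higher, 44 were on none of these lists. CPM, which encodes carboxypeptidase M and shares its symbol with the unit, measured 2.05, 1.9 and 1.23 CPM in DMSO and 18.5, 10.4 and 10.8 CPM in Nutlin-3a, a 7.61-fold rise. PVRL4 (nectin 4, an adhesion protein of epithelia) went from 2.16, 1.23 and 1.98 CPM to 14.8, 11.9 and 12 CPM. PGF, placental growth factor, measured 8.41, 5.89 and 9.8 CPM and then 25.9, 24 and 38.2 CPM. None of these genes had overlapping groups. DAPK1, a kinase that promotes cell death, rose 3.57-fold, and TNFSF9, the ligand of the costimulatory receptor 4-1BB, 2.46-fold. PHLDB3 rose 2.61-fold. RGS16, a brake on G protein signalling, stood at 2.6, 5.22 and 14 CPM in DMSO and 6.96, 13 and 35.5 CPM in Nutlin-3a. It rose in each pair by a similar factor although the replicates of 1 treatment differed more than the treatments did.

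Further genes were picked out after their values were seen. INPP5D, the inositol phosphatase SHIP1, was the most abundant of these, at 62.3, 75.6 and 105 CPM in DMSO and 156, 183 and 227 CPM in Nutlin-3a (log2FC 1.24). NHLH2, a neuronal transcription factor, had 4, 6 and 4 reads in the DMSO libraries and 30, 46 and 26 in the treated ones. CDH10, a cadherin, had 2, 3 and 0 reads and then 10, 14 and 17, so that its fitted log2FC of 3.05, the highest of all called genes, depends on the prior count.

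Several called genes were neighbours in the genome. Of 6 pairs of called genes within 50 kb, 5 were both higher, none were both lower and 1 moved in opposite directions. How often tested genes in general lie this close was not computed, so the count does not set the called genes apart. MDM2 and CPM lie 10.3 kb apart on opposite strands. PHLDA3 was followed within 0.346 kb on its strand by RP11-134G8.8, which had a log2FC of 1.25, and ACER2 within 1.19 kb by the long non-coding ENSG00000260912, with 1.40. FAS and ACTA2, smooth muscle actin, overlap on opposite strands and share the element at chr10:90751066-90751085. ACTA2 measured 8.96, 7.92 and 7.99 CPM in DMSO and 18.2, 14.4 and 9.87 CPM in Nutlin-3a. FAM198B overlaps the antisense RP11-597D13.9, which rose with a log2FC of 1.06. The opposite pair was TP53INP1 and CCNE2, 29.3 kb apart. In all, 36 of the 165 called genes overlap another tested gene, and the share over all tested genes was not computed. The strand setting of the counting is not given in the sources used here, so reads of overlapping genes may not be told apart, and reads running past a gene end may have been counted for its neighbour. By annotation, 6 of 882 long non-coding genes (0.68%) were higher and none lower, a share near the 0.702% of all tested genes. The non-coding RP11-115D19.1 and RP11-44F14.8 had log2FC of 1.19 and 0.77.

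Down-regulated genes included 13 members of the cell cycle lists and 57 other genes. Among the largest falls at a mean of at least 5 CPM were those of E2F2, ZNF367, FBXO5 and HJURP. E2F2 (chr1:23832922-23857712), an activator of S phase genes, fell from 16.5, 13.3 and 17.5 CPM to 7.64, 6.82 and 7.5 CPM, a log2FC of -1.10 (SE 0.12, edgeR adjusted p 0.000334). ZNF367, a zinc finger gene, measured 28.4, 30.7 and 34.2 CPM and then 13.1, 15.8 and 14.8 CPM. FBXO5, the inhibitor EMI1 of the anaphase-promoting complex, went from 48.1, 53.7 and 65.7 CPM to 23, 30.2 and 32.1 CPM. HJURP, the chaperone that loads the centromeric histone CENPA, measured 77.6, 77.6 and 88.4 CPM before and 41, 47 and 36.4 CPM after. For each of these genes every treated library was below every control. WEE1, the kinase that holds CDK1 inactive, stood at 52.1, 52.5 and 51.3 CPM in DMSO and 26.5, 34.2 and 25.1 CPM in Nutlin-3a. CCNF, cyclin F, went from 71.9, 74.5 and 73.6 CPM to 38.4, 48.7 and 38.6 CPM. The repressor E2F8 had a log2FC of -0.95, BORA, which activates Aurora A, -0.73, the mitotic spindle genes PSRC1 and KIF18B both -0.69 and the telomere nuclease gene DCLRE1B -0.68.

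**Figure D4:**
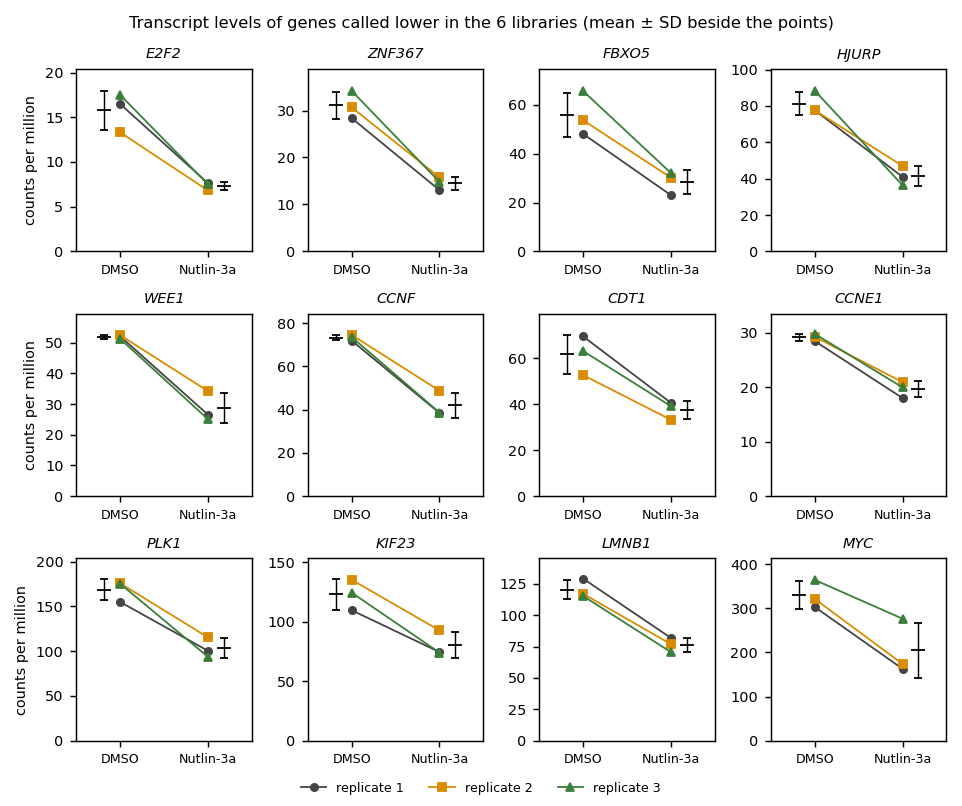
CPM (vertical axis, linear from 0) of 12 genes called lower in the 6 libraries, with a line joining the libraries of each replicate and the group mean ± SD beside the points. All lines fall and no groups overlap, and MYC replicate 3 falls least.

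Both cell cycle lists moved down with small steps. Among 28 genes of DNA replication and G1/S, 6 fell, none rose, 25 had a log2FC below 0 and the median was -0.20. The licensing factor CDT1 went from 69.4, 52.6 and 63.1 CPM to 40.5, 33.2 and 39.1 CPM (log2FC -0.71), and cyclin E gene CCNE1 from 28.4, 29.2 and 29.8 CPM to 18, 20.9 and 19.9 CPM. CCNE2, CDC25A and ORC1 were the other called members, with E2F2, at -0.56, -0.56 and -0.52. CDC25A, the phosphatase that activates CDK2, had overlapping groups. PCNA, the sliding clamp of replication that is also a p53 target, had a log2FC of 0.26 and was not called. Among 26 genes of mitosis and G2/M, 7 fell, none rose, all 26 had a log2FC below 0 and the median was -0.34. Of all 13529 tested genes, 6586 were below 0. The 7 called members fell in every pair, but the pairs of some others disagreed. In pairs 1 to 3, MKI67 had log2 changes of 0.56, -0.41 and -0.92, CENPE 0.58, -0.13 and -0.54 and CENPF 0.36, -0.34 and -0.96. The mitotic kinase PLK1 measured 155, 176 and 175 CPM and then 100, 115 and 93.6 CPM (log2FC -0.71), and the kinesin KIF23 fell with -0.62. CENPA (-0.66), the checkpoint kinase TTK (-0.63), CCNA2 (-0.51) and KIF20A (-0.51) completed the list with CCNF. The cyclin B1 gene CCNB1 had a log2FC of -0.32 and CDK1 -0.10, and neither was called. Over both lists 13 of 54 genes (24.1%) were called lower, against 0.517% of all tested genes, and 0 of them without the replicate block. The median of -0.31 was -0.296, -0.271 and -0.382 in the 3 pairs. In bulk RNA, fewer cells in a phase and less RNA per cell cannot be told apart.

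Of the 70 genes called lower, 57 were on neither cell cycle list. Apart from THBS1, the most abundant of those named was MYC, the growth-promoting transcription factor, at 303, 321 and 364 CPM in DMSO and 163, 174 and 277 CPM in Nutlin-3a. Its log2FC was -0.73 (SE 0.10, edgeR adjusted p 0.00199), with the groups apart and replicate 3 changed least. SYBU, a microtubule adaptor gene, had a log2FC of -0.85, the homeobox gene IRX3 -0.80, SERTAD4 -0.79, the ciliary gene HYLS1 -0.78 and the kinase gene CAMKK1 -0.73. IRS1, the insulin receptor substrate, fell with -0.68 while its groups overlapped. Both CAMKK1 and IRS1 lost their calls in some of the alternatives with all libraries. GAS1, named after its values were seen, had the lowest log2FC of all called genes, -1.19, at 4.92, 4.23 and 6.48 CPM before and 1.91, 1.98 and 2.96 CPM after. It encodes a membrane protein known for its expression in growth arrest. LMNB1, the nuclear lamin B1 gene, also named afterwards, had a log2FC of -0.66.

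Promoters of the genes called lower held cell cycle motifs at a higher share than those of all genes. TTTGAA, the core of the cell cycle homology region bound by the DREAM and MuvB complexes, lay on either strand in the window from 250 bases before to 50 after the 5′ end in 17 of the 70 genes (24.3%), in 14.7% of the genes called higher and in 11.1% of all tested genes. CCNF, PLK1, HJURP, BORA and E2F8 were among the 17. An E2F motif, TTTCGCG or TTTGGCG on either strand, lay in 7 of the 70 (10%), in 2.11% of the genes called higher and in 4.44% of all, and E2F2, CDC25A, WEE1 and ZNF367 were among the 7. Over the 54 genes of the cell cycle lists both motifs had a share of 25.9%. These motifs were chosen after the calls were seen, and the shares are given without a test.

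Outside p53 targets and the cell cycle, 3 of 220 genes on 15 other lists were called (1.36%), near the 1.22% of all tested genes, so their calls do not set them apart from the rest. ERK feedback and output genes had a median log2FC of -0.09 over 16 tested members, with SPRY1 at 0.40 and SPRY2 at -0.28. NF-kB and inflammatory genes had a median of -0.07 over 18, with NFKBIE at 0.38 and IL6 at -0.56, and ribosome biogenesis genes -0.02 over 20, with POLR1B at -0.24 and NOP56 at -0.23. Basal epithelial and p63-linked genes stood at 0.08 over 19, with FGFR2 at 0.41 and DSG3 at 0.35. Notch pathway genes other than NOTCH1 had a median of -0.17 over 12, with NOTCH3 at 0.63 and HEY2 at -0.92, and TGF-beta response genes -0.08 over 15, with SMAD3 at -0.36 and ID3 at 0.34. None of these passed the test, and IL6 and HEY2 had at most 30 and 14 reads in a library.

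Amino acid response (ATF4) genes had a median log2FC of -0.07 over 14 members, with CHAC1 at -0.52 and STC2 at -0.29. CHAC1 measured 62.1, 69.5 and 13 CPM in DMSO and 46.9, 61.5 and 4.8 CPM in Nutlin-3a, with replicate 3 low under both. NRF2 antioxidant genes had a median of 0.02 over 12, with GCLC at -0.27 and NQO1 at 0.16, and hypoxia and glycolysis genes 0.01 over 14, with CA9 at 0.63 and ADM at -0.26. Cholesterol synthesis genes stood at 0.11 over 13, with MVD at 0.26 and FDPS at 0.18, interferon-stimulated genes at 0.01 over 14, with IFIT1 at -0.78 and IFI27 at -0.60, and reference genes at 0.07 over 12, with TBP at -0.21 and SDHA at 0.20. CA9, IFIT1 and IFI27 had at most 40, 20 and 14 reads in a library, and the pairs of CA9 and IFI27 disagreed in sign. The 3 called genes were HSPA1A, AREG and MYC. The heat shock gene HSPA1A rose from 148, 146 and 170 CPM to 193, 244 and 259 CPM, while its near-identical copy HSPA1B had a log2FC of 0.42 under the fold threshold, and reads of the 2 copies may have been split by the counting. The list median was 0.13 over 12. AREG, amphiregulin, rose with 0.61 in the list of EGF family ligands and ERBB receptors, whose median was 0.04 over 10, while EREG had a log2FC of 0.20. Immediate-early transcription factors had a median of -0.06 over 20 and 1 call, that of MYC, while FOS had a log2FC of 0.48 with an edgeR adjusted p of 0.0241.

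**Figure D5:**
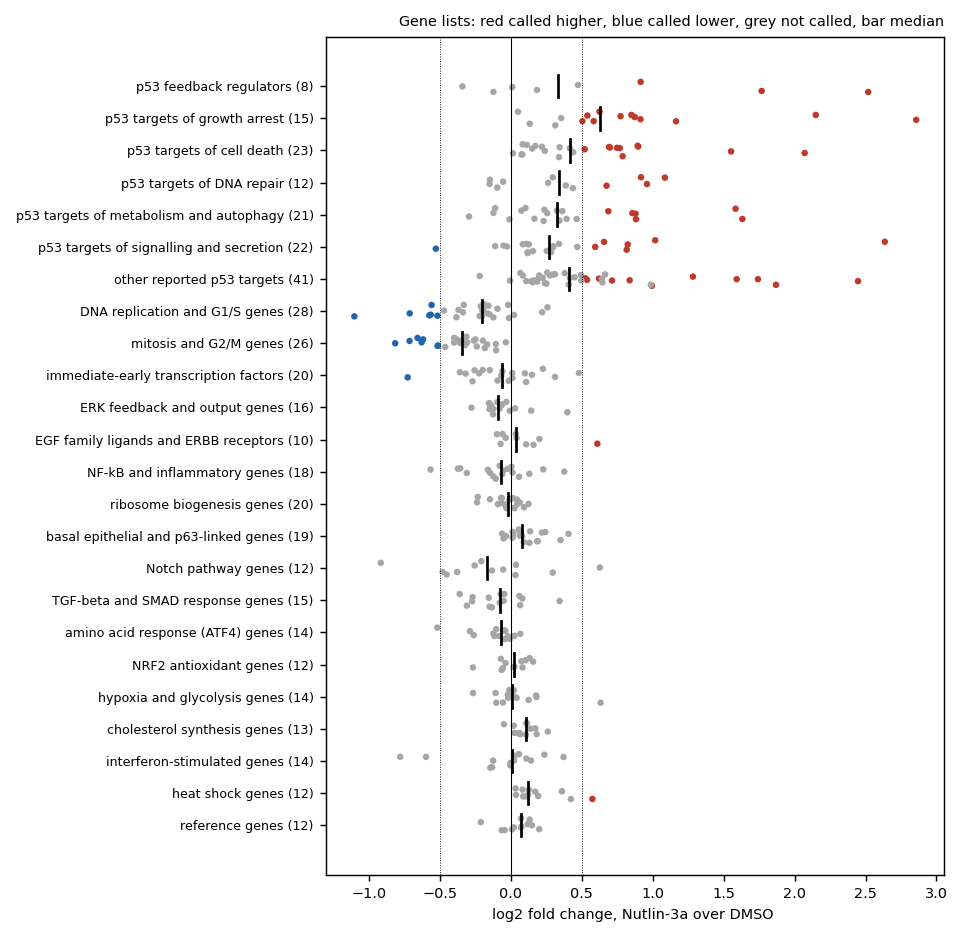
Log2 fold change of Nutlin-3a over DMSO (horizontal axis) of every tested member of 24 lists (rows, with the number tested), coloured by call, with a black bar at the median of each list. The medians of the 7 lists of p53 feedback regulators and targets lie to the right of 0 and those of both cell cycle lists to the left, while 3 genes of the 15 other lists were called.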

How the data were processed

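RNA of the 6 cultures was poly(A)-selected, made into libraries with the NEBNext Ultra kit and sequenced by the authors. The submitters' processing notes name TopHat, HTSeq, edgeR and hg19. The deposited values are raw counts of reads per gene, not normalized by the authors. The annotation release and strand setting are not given in the sources used here. Of the gene symbols, 28 had been turned into dates and were kept in the fits. The second count table, of untreated and G12V cells on another annotation, was not used.

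Genes were filtered with filterByExpr, scaled by TMM and tested with the quasi-likelihood F-test of edgeR 4.0.16 (limma 3.58.1, R 4.3.3) with the replicate number as a block and Benjamini-Hochberg adjustment over all 13529 genes. The prior count was 0.125. The SE is the absolute log2FC over the square root of F. CPM are on TMM-scaled library sizes, except those of the cell type markers, which are on library totals. The block was used because the titles number both groups alike and same-number libraries deviated together in every pair (lowest r 0.603). The fit was checked on simulated counts. DESeq2 1.42.0 was an alternative, with other scalings, filters and left-out pairs. Depth was 15453226 to 17378734 reads, and counting error grows as the level of a gene falls, also above 1 CPM. The SE, which holds counting error and the spread between pairs alike, was 0.07 for PHLDA3 at a mean of 391 CPM. It was 0.17 for PVRL4 at 7.35 CPM and 0.22 for RP11-597D13.9 at 3.27 CPM.

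Named genes were MDM2 and CDKN1A, those called at a mean of at least 5 CPM that came in the top 20 by log2FC in either direction with all 3 pairs alike in sign, all called list members, for a list with fewer than 2 calls its 2 members with the largest change, and the 5 called non-coding genes with the largest change. A few genes that the rule names are not reported here. The members and lists were chosen with earlier results of these data known. Motifs were searched in GRCh37 around the deposited 5′ ends. A RefSeq promoter table covered 70.5% of the higher genes and was not used. The position of an element relative to exons is from GENCODE on GRCh37. Figures were drawn with matplotlib 3.10.9.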

Additional observations from a re-analysis of the deposited data

How the results depend on the processing

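The replicate block had the largest effect on the counts. Without the block, 21 genes were called higher and 2 lower, and 13 of the p53 genes. An unadjusted edgeR p under 0.05 was reached by 463 genes without the block and by 1584 with it. If no gene changed, a fraction of about 0.05 of the 13529 tested genes would reach it, and 463 is below that. Without a filter on low counts 147 genes were higher and 113 lower, and without the fold threshold 122 were lower. Leaving out each pair in turn gave 109 to 173 higher and 60 to 131 lower genes, and the highest counts, 173 and 131, came without replicate 1. DESeq2 with the block called 82 higher, all among the 95, and 61 lower, 59 of them among the 70. The p53 count stayed within 1.5 times of 51 under every setting but the fit without the block. None of the 95 called genes named by the rule changed sign under any setting. Of these, 79 kept their call without each pair in turn. AREG, BAX, CAMKK1, CCNA2, CCNE2, HES2, HSPA1A, IRS1, KIF20A, LIF, ORC1, RP11-44F14.8, SERTAD1, THBS1, TMEM68 and ZMAT3 did not. Over all called genes, 76 of the 95 higher and 32 of the 70 lower kept their call without each pair in turn. The cause of these differences was not tested.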
